A study of Mus musculus with 12 samples.

Results

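L-arginine (L-Arg) was given to mice with an uninjured colon, and mRNA expression in their colon tissue was compared with that of mice that drank water alone. The comparison rests on 6 of the 12 mice of the series, chosen by their labels: 3 control mice and 3 control+L-Arg mice. All were male wild-type C57BL/6 mice, 7 weeks old at the start and 8 weeks and 3 days old at sacrifice on day 10. The control mice received water throughout, the control+L-Arg mice received 1% L-Arg in the drinking water for the last 4 days, and neither group received dextran sulfate sodium (DSS), the polysaccharide that injures the colonic epithelium in the other 6 mice. Those other mice drank 4% DSS for 6 days and then water (DSS, 3 mice) or 1% L-Arg (DSS+L-Arg, 3 mice) for 4 days, and they are used here only to set the effect of L-Arg without injury beside its effect after injury. RNA was taken from a piece of colon, which by the study's methods joined small samples of the proximal and distal ends, with 1 Affymetrix mouse Gene ST array per mouse, and levels are given on the log2 scale, on which a difference of 1 is a 2-fold change. A total of 19938 genes were tested, each through its brightest probe set among those assigned to exactly 1 gene. Every fold change below is control+L-Arg over control unless another pair is named, and standard errors (SE), 95% intervals and p values come from limma with the spread shared by all 12 arrays.

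L-Arg enters cells through cationic amino acid transporters such as CAT1 and CAT2. Arginases convert it to ornithine and urea, nitric oxide synthases convert it to citrulline and nitric oxide, and ornithine feeds the polyamines through ornithine decarboxylase (ODC) or proline through ornithine aminotransferase (OAT). Amino acids are also sensed by the mTORC1 pathway and, when scarce, by the kinase GCN2, which acts through the transcription factor ATF4. Cholesterol, to which a large part of the results relates, is built in most cells from acetyl-CoA by the mevalonate pathway, whose genes are switched on together by the transcription factor SREBP-2 (Srebf2) when sterols in the endoplasmic reticulum are low. INSIG proteins hold SREBP-2 back when sterols are plentiful.

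Markers of the colon epithelium were bright on the arrays. The median level over the 6 mice was 12.08 for 16 colonocyte markers and 11.99 for 14 measured goblet cell markers, against 7.07 over all genes. All of these markers were brighter in each of the 6 mice than 30% of all values on the arrays. So were 13206 of the 19938 genes, so passing that level does not by itself identify the tissue. The medians of the 6 arrays over all probe sets lay between 6.53 and 6.64. The pieces of colon differed between mice in ways the groups do not explain. Posterior Hox genes, which mark the position along the colon, were low in control 2 and control+L-Arg 2, with list medians of -0.63 and -0.66 relative to the control mean and of 0.25 to 0.31 in the other 4 mice. Smooth muscle markers were high in control 3 and control+L-Arg 3 (0.73 and 1.11) and between -0.69 and 0.30 in the others. Seminal vesicle transcripts stood out in control 2, where Svs2 was at 11.77 and Svs5 at 11.79, with the next highest values, 7.32 and 7.20, in control+L-Arg 2.

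At an adjusted p under 0.05, L-Arg changed the expression of none of the 19938 genes (0%, lowest adjusted p = 0.999 by limma with Benjamini-Hochberg adjustment). Without adjustment, 686 genes had a p under 0.05, of which 266 (1.33%) were higher and 420 (2.11%) lower in control+L-Arg mice, where 996.9 would be found if no gene differed. The unequal-variance test gave 601 such genes and SAM 963, and neither called a gene after adjustment. The values of the groups did not overlap in 728 higher genes (3.65%) and in 1337 lower genes (6.71%). The study's own thresholds were a p under 0.01 together with a change of more than 2-fold. With the p from limma, 2 genes were higher and 1 lower (0.015%), and at more than 1.5-fold, 7 genes were higher and 11 lower (0.0903%). With the p from SAM, the test that the methods name, 2 genes passed over 2-fold and 26 over 1.5-fold. Single mice decided the limma counts: without control+L-Arg 2, 32 genes passed over 2-fold and 141 over 1.5-fold, and without control+L-Arg 3, 0 and 5. At an unadjusted p under 0.05 the same fits gave 572 higher and 885 lower genes and 121 higher and 164 lower genes. The precision was enough to bound most genes. The 95% interval lay within a 2-fold change in either direction for 19183 genes (96.2%) and within a 1.5-fold change for 83.6%, with a median SE of 0.12. With the mouse number as a block in a fit of these 6 arrays (2 residual degrees of freedom), 557 genes were higher and 971 lower at an unadjusted p under 0.05, and again none passed adjustment (lowest adjusted p = 0.503 by limma).

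Bright genes were shifted slightly downward. The median log2 fold change was 0.028 over genes with a mean level under 5 and -0.071 over genes between 9 and 10. In the first class 2.72% of genes were higher and 0.369% lower at an unadjusted p under 0.05, and in the second 0.416% were higher and 3.84% lower. Of 1027 olfactory receptor genes, which are dim on these arrays, 48 (4.67%) were higher and 3 lower, with a median of 0.080, above the values of the dimmest class. Cholesterol synthesis genes are all bright. Their share at an unadjusted p under 0.05 is therefore also set beside genes with a mean level of 7 or more. Their other counts are set beside all genes, dim ones included.

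**Figure D1:**
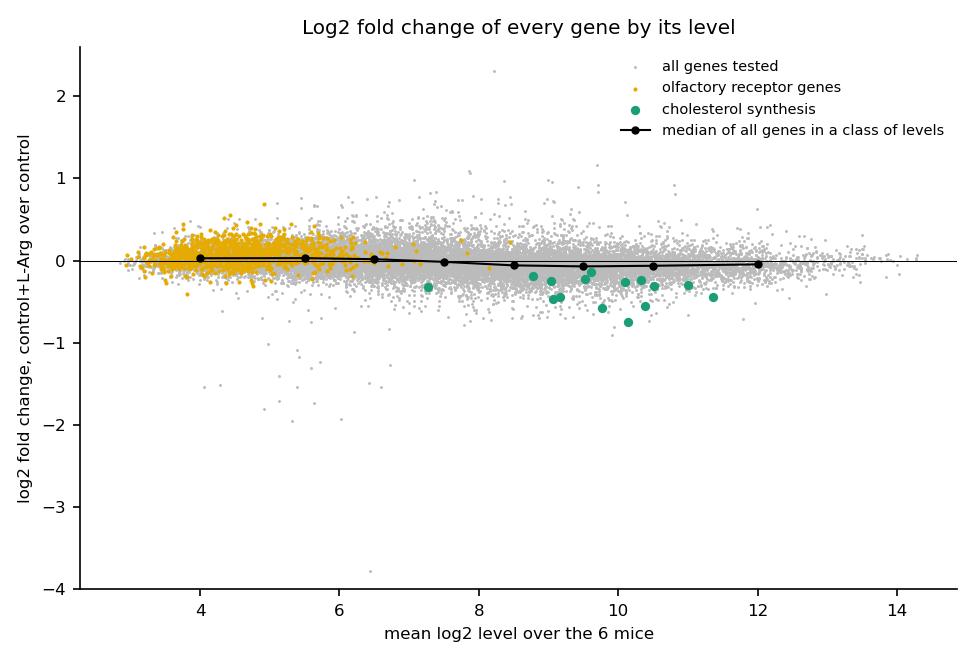
Mean log2 level over the 6 mice (x axis) and log2 fold change of control+L-Arg over control (y axis) of the 19938 genes, each point 1 gene, with olfactory receptor genes in yellow, the 15 measured cholesterol synthesis genes in green and the median of all genes in classes of levels as a black line. The cholesterol synthesis genes lie below 0, between -0.75 and -0.14, while the black line stays between -0.071 and 0.029.

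A total of 104 genes (0.522%) had an unadjusted p under 0.01 and groups that did not overlap, 30 of them higher and 74 lower with L-Arg. The largest increase among these was in Serpina3n, an acute-phase inhibitor of serine proteases. Serpina3n was at 7.08, 7.55 and 7.40 in control mice 1, 2 and 3 and at 8.63, 7.77 and 8.82 in control+L-Arg mice 1, 2 and 3, a log2 fold change of 1.06 (SE 0.25, 95% interval 0.51 to 1.62). Control+L-Arg 2 lay close to the highest control mouse, and the other treated mice lay well above. C1s1, which encodes a serine protease of the classical complement pathway, had the same order of treated mice, with 5.61, 5.83 and 5.63 in control and 6.47, 6.01 and 6.62 in control+L-Arg mice (log2 fold change 0.68, SE 0.15). Ifi213, an interferon-inducible gene, was at 4.71, 4.83 and 4.71 in control and 5.60, 5.48 and 5.26 in control+L-Arg mice, and here mouse 1 was the highest of its group. Klrb1b, a C-type lectin receptor of natural killer cells, was at 5.24, 5.58 and 5.24 and 6.09, 5.70 and 6.26. Stc1, which encodes the secreted hormone stanniocalcin, was at 5.40, 5.29 and 5.23 and 5.93, 5.87 and 6.11, so that each treated mouse lay clearly above each control mouse. Xcr1, a chemokine receptor of cross-presenting dendritic cells, had the lowest p of all genes, with 5.39, 5.36 and 5.26 in control and 5.76, 5.75 and 6.06 in control+L-Arg mice (log2 fold change 0.52, SE 0.099, adjusted p = 0.999 by limma). With the unequal-variance test the unadjusted p was 0.063 for Serpina3n and 0.051 for C1s1. That test gave 0.011 for Ifi213, 0.035 for Klrb1b and 0.025 for Xcr1. Ifi213, Klrb1b and Xcr1 are dim and did not pass a filter that asked for a level above 5.89 in at least 3 arrays. Their mean levels lay between 5 and 6, where 2.08% of genes were higher and 0.801% lower at an unadjusted p under 0.05. The other 4 of the 10 largest increases were in Olfr1537 (0.68) and Olfr967 (0.55), both olfactory receptors, in the lipid transporter Abca8a (0.50) and in Stard9 (0.49), which encodes a kinesin.

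Of the 3 genes past a 2-fold change, only Serpina3n had groups that did not overlap. Igkv9-120, a segment of the immunoglobulin light chain family, whose members have similar sequences, was at 6.30, 8.30 and 6.59 in control and 9.78, 7.83 and 10.52 in control+L-Arg mice, so control 2 lay above control+L-Arg 2. Pate14, a gene of the male genital tract, was at 4.34, 9.61 and 11.03 in control and 4.24, 4.89 and 4.51 in control+L-Arg mice. Its high values were those of control 2 and control 3. Control 2 also carried the seminal vesicle transcripts, and control 3 the prostate transcripts Pbsn and Tgm4, at 7.71 and 9.40, which were between 3.26 and 3.42 and between 4.55 and 5.24 in the other 5 mice. Without control 1, Pate14 was the single gene called (adjusted p = 8.5e-05 by limma).

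The 10 largest decreases included 2 genes of the sterol pathway, Insig1 and Hsd17b7, whose values are given with that pathway. The largest decrease among genes without overlap was in St3gal1, a sialyltransferase of O-linked glycans, at 10.47, 10.53 and 10.02 in control and 9.39, 9.99 and 9.22 in control+L-Arg mice (log2 fold change -0.81, SE 0.24). Control+L-Arg 2 lay just below control 3, and the other treated mice were lower. With the mean of its probe sets in place of the brightest, the value was -0.41 (unadjusted p = 0.027 by limma). With the unequal-variance test the unadjusted p of St3gal1 was 0.054. Gpr39, a zinc-sensing receptor, was at 8.78, 8.99 and 8.72 and 8.06, 8.57 and 7.78. The nectin-family adhesion molecule Pvr was at 10.16, 10.28 and 10.05 and 9.44, 9.94 and 9.25, with the same order of treated mice as Gpr39. Rnf24, which encodes a RING finger protein, was at 9.25, 9.24 and 8.85 and 8.48, 8.44 and 8.42, with closely similar values in the 3 treated mice. The remaining decreases were in Insig1 (-0.75), the histone gene H3c4 (-0.70), the envelope-derived Syna (-0.65), Xkr9 (-0.64), the sterol enzyme Hsd17b7 (-0.60) and the phosphatase gene Ppm1j (-0.59).

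The genes of L-Arg handling differed little between mice that received L-Arg and mice that did not. Of 12 arginine transport genes, none had a p under 0.05, and the median log2 fold change was -0.11, against -0.011 over all genes. Slc7a1, which encodes CAT1, was at 8.78, 9.08 and 9.01 in control and 8.75, 8.94 and 8.85 in control+L-Arg mice, with a 95% interval of the log2 fold change of -0.41 to 0.19. Slc7a2, which encodes the inducible transporter CAT2, was at 5.22, 5.28 and 5.07 and 5.09, 5.22 and 5.45 (95% interval -0.33 to 0.46). Both intervals lie within a 1.5-fold change. The 4 largest differences in the list were in Slc3a1 (-0.49), the heavy chain of a basic amino acid exchanger, Slc7a6 (0.21) and Slc7a7 (-0.19), light chains of carriers that exchange basic for neutral amino acids, and the broad amino acid transporter Slc6a14 (-0.16).

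The main enzymes that use L-Arg and ornithine overlapped between the groups. Nos2, which encodes the inducible nitric oxide synthase iNOS, was at 6.84, 7.57 and 6.06 in control and 6.30, 6.47 and 6.38 in control+L-Arg mice. The control values were widely spread and held all the treated values between them, and the 95% interval (-1.68 to 0.80) allows a change of over 2-fold in the downward direction. Arg1 was at 5.61, 5.93 and 5.78 and 5.56, 5.80 and 5.89, and Arg2, the mitochondrial arginase, at 10.24, 10.72 and 10.11 and 9.86, 10.96 and 9.79. In Arg2 the mice numbered 2 were the highest of both groups. Odc1, the first enzyme of polyamine synthesis, was at 10.03, 10.19 and 10.40 and 10.00, 10.09 and 10.09, and Oat at 10.75, 11.14 and 11.21 and 11.17, 11.22 and 11.14. An exact two-sided permutation test over the 6 mice gave p values between 0.3 and 0.8 for these 7 genes, and 3 mice against 3 cannot give less than 0.1.

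A total of 2 genes in the arginine and polyamine lists had a p under 0.05, both lower with L-Arg. Of 25 arginine metabolism genes this was Gch1, the first enzyme in the synthesis of tetrahydrobiopterin, the cofactor of nitric oxide synthases. Gch1 was at 7.18, 7.23 and 7.17 in control and 6.95, 6.54 and 6.39 in control+L-Arg mice, which do not overlap (log2 fold change -0.56, SE 0.19, unadjusted p = 0.014). The other enzymes of this cofactor, Pts, Qdpr and Spr, had log2 fold changes of -0.071, -0.19 and 0.0053. Of 14 polyamine genes it was Smox, spermine oxidase, at 10.07, 10.36 and 10.04 and 9.70, 10.00 and 9.74 (log2 fold change -0.34, SE 0.13, unadjusted p = 0.021). Control+L-Arg 2 was the highest treated mouse and lay just below the lowest control mouse. Both calls depended on the setting. Smox had an unadjusted p over 0.05 with quantile normalization, cyclic loess, the unequal-variance test and the accessory gland covariate (value -0.19), on leaving out control 2 (value -0.24), and on leaving out the first or the third treated mouse. Gch1 did so with the unequal-variance test and on leaving out the third treated mouse. The medians of these lists were -0.071 and -0.093, and 20 of 25 and 14 of 14 genes had a 95% interval within a 2-fold change.

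**Figure D2:**
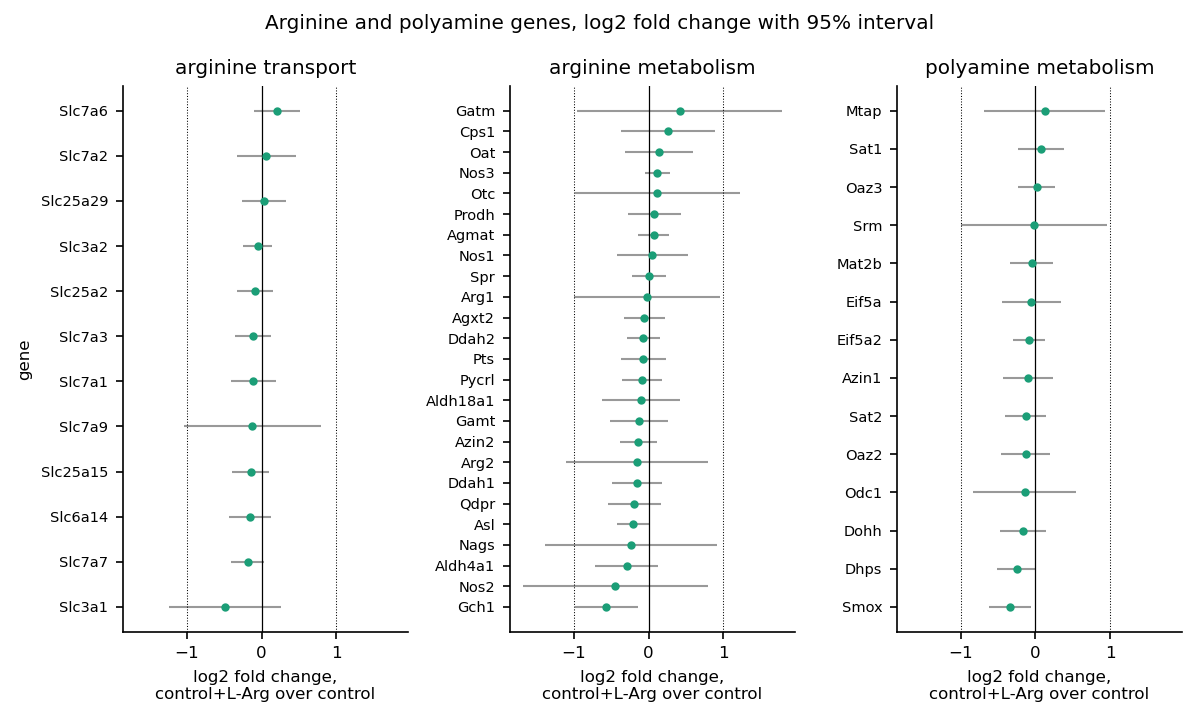
Log2 fold change of control+L-Arg over control (x axis) with its 95% interval from limma for the 12 arginine transport, 25 arginine metabolism and 14 polyamine genes, each row 1 gene, with dotted lines at a 2-fold change. Gch1 and Smox are the genes whose intervals exclude 0, and Gatm, Nos2 and Nags have the widest intervals.

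Genes that respond to amino acid supply differed as little. Of 26 amino acid sensing genes, 1 had a p under 0.05, the amino acid receptor Gprc6a, at 5.29, 5.27 and 4.96 in control and 5.28, 5.56 and 5.44 in control+L-Arg mice, with an overlap between control 1 and control+L-Arg 1. None of 26 ATF4 targets had a p under 0.05, and their median was -0.067. The largest differences among them were in Atf3 (-0.57, 95% interval -1.26 to 0.12), a stress-induced transcription factor, Vldlr (-0.22), the cystine transporter Slc7a11 (-0.20) and the cysteine-forming enzyme Cth (-0.19). Of 9 nitric oxide signaling genes none had a p under 0.05, with the largest values in Gucy1a1 (0.41), a subunit of the nitric oxide receptor, and the cGMP-dependent kinase Prkg1 (0.27).

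Genes of cholesterol synthesis were lower in the control+L-Arg mice. All 15 measured genes of the list (18 written) had a negative log2 fold change, where 10673 of the 19938 genes did. The median was -0.31, and the values ran from -0.75 to -0.14. Of the 15, 11 were lower at an unadjusted p under 0.05 and none was higher, where 2.11% of all genes and 3.43% of genes with a mean level of 7 or more were lower. In 12 of the 15 the groups did not overlap, where this held for 6.71% of all genes, dim ones included. None of the 15 passed adjustment over all genes. The list was chosen with earlier results of these data known. Genes of this pathway are switched on together and were measured in the same mice, so the counts are not separate observations. The shares of all genes are given for description and do not test the list. Relative to the control mean, the list median was 0.022, 0.0095 and 0.0081 in control mice 1, 2 and 3 and -0.21, -0.34 and -0.36 in control+L-Arg mice 1, 2 and 3.

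The promoters shown are those of the 4 sterol genes with the largest decreases among those that have a promoter in the table used, because genes that SREBP-2 switches on together can share promoter motifs. Hsd17b7 and Msmo1 were added to the pathway after their values were seen. Each line gives the 250 bases before the start site, 5′ to 3′ on the gene's strand, from RefSeq (GRCm38.p6, a different build from the mm9 that the submitters name for the arrays). The positions are chr13:119690101-119690350 (plus strand) for Hmgcs1, chr5:28071162-28071411 (plus strand) for Insig1, chr1:169969206-169969455 (minus strand) for Hsd17b7 and chr8:64733579-64733828 (minus strand) for Msmo1, all directly upstream of the annotated start. Capitals mark the CCAAT box (CCAAT on either strand), which the factor NF-Y binds, and the sterol regulatory element TCACNCCAC, which SREBP binds, and the motifs do not overlap.
Hmgcs1: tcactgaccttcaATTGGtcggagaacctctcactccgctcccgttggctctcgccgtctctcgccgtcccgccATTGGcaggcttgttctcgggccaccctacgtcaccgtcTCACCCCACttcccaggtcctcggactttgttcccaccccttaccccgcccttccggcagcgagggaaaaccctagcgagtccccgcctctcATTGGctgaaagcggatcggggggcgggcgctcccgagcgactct
Insig1: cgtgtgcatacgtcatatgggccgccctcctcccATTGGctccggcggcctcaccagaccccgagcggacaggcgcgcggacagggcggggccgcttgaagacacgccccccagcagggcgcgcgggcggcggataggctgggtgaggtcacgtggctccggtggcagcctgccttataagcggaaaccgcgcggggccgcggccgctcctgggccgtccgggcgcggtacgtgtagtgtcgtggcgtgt
Hsd17b7: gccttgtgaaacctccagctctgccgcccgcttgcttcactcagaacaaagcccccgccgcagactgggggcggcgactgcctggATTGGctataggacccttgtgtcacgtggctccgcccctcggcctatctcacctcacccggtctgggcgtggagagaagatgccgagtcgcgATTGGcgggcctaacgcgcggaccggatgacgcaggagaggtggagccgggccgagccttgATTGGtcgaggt
Msmo1: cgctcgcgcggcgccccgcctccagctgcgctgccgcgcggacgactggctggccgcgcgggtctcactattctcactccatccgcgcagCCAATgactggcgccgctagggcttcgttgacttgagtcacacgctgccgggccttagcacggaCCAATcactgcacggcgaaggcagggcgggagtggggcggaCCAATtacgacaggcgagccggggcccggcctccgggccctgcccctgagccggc
A promoter of 300 bases, 250 before and 50 after the start site, was available for 11 of the 15 cholesterol synthesis genes, and 10 of them held a CCAAT box, as did 7 of 7 other sterol synthesis enzymes. The box was in 38.2% of the 15614 promoters of all genes tested and in 38.0% of those of genes with a mean level of 7 or more. The sterol regulatory element in this strict spelling was in 1 of the 11, Hmgcs1, in 0 of the 7 and in 1.16% of all promoters. Promoter motifs are the same with and without L-Arg, and a part of SREBP-2 in the decrease was not tested.

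Of 6 genes of the early steps, which lead to farnesyl diphosphate, 2 were lower at a p under 0.05. Hmgcs1, the synthase that supplies HMG-CoA, was at 10.71, 10.66 and 10.60 in control and 10.39, 9.82 and 10.10 in control+L-Arg mice (log2 fold change -0.56, SE 0.15). Its control mice lay close together, and the lowest treated mouse was control+L-Arg 2. Pmvk, the phosphomevalonate kinase, was at 7.46, 7.40 and 7.45 in control and 7.05, 7.12 and 7.16 in control+L-Arg mice, with similar values in all 3 treated mice (log2 fold change -0.32, SE 0.095). The mevalonate kinase Mvk (-0.25), the decarboxylase Mvd (-0.19), the isomerase Idi1 (-0.14) and the farnesyl diphosphate synthase Fdps (-0.26) did not reach a p under 0.05. In Idi1 control+L-Arg 1 was the highest of the 6 mice, at 9.96. Fdps was at 10.25, 10.21 and 10.24 and 10.05, 9.90 and 9.96, without overlap, and Mvk did not overlap either.

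The 6 enzymes of the list that act from farnesyl diphosphate through squalene to the sterols were each lower at a p under 0.05. Of enzymes of this part added after their values were seen, Ebp (-0.099), Lbr (-0.092) and Nsdhl (-0.23) did not reach it. The added Hsd17b7 (-0.60), Msmo1 (-0.53) and Tm7sf2 (-0.25) did. Fdft1, squalene synthase, was at 11.50, 11.61 and 11.63 in control and 11.36, 10.98 and 11.05 in control+L-Arg mice. Sqle, squalene epoxidase, which limits the later part of the pathway, was at 10.12, 10.09 and 9.95 and 9.68, 9.31 and 9.43, a log2 fold change of -0.58 (SE 0.13, 95% interval -0.85 to -0.30). Each control mouse was clearly above each treated mouse. Lss, lanosterol synthase, was at 8.94, 9.59 and 9.36 and 8.78, 8.93 and 8.76, and control 1 lay just above the highest treated mouse. Cyp51, lanosterol demethylase, was at 9.39, 9.40 and 9.38 and 9.19, 8.87 and 8.79. The last enzymes, Sc5d and Dhcr7, had log2 fold changes of -0.24 and -0.31 without overlap between the groups.

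Insig1 and Srebf2, the regulators in the list, were lower at a p under 0.05. Insig1, which retains the SREBP complex in the endoplasmic reticulum and is itself a target of SREBP, had the largest difference of the list, with 10.69, 10.39 and 10.46 in control and 9.96, 9.73 and 9.61 in control+L-Arg mice (log2 fold change -0.75, SE 0.18, 95% interval -1.14 to -0.35). Srebf2 was at 11.07, 11.23 and 11.16 and 10.88, 10.89 and 10.82 (log2 fold change -0.29, SE 0.087). The sterol carrier Stard4 was at 9.64, 9.59 and 9.69 and 9.59, 9.37 and 9.29, with control+L-Arg 1 just above the lowest control mouse. Of genes added after their values were seen, the sterol enzymes Hsd17b7 and Msmo1 were at 9.89, 9.86 and 9.81 and 11.05, 10.92 and 11.01 in control and at 9.26, 9.36 and 9.13 and 10.75, 10.22 and 10.44 in control+L-Arg mice. Of 7 such further sterol enzymes, 3 were lower at a p under 0.05 and all 7 had a negative value. Npc1, a lysosomal cholesterol transporter, was the 1 of 10 genes of cholesterol uptake, trafficking and efflux with a p under 0.05 (-0.48), and Srebf1 the 1 of 4 other regulators (-0.26). The others, the SREBP protease Mbtps1 (0.076), the escort protein Scap (-0.12) and Insig2 (-0.11), went in both directions. None of 14 genes of fatty acid synthesis and desaturation reached it, with Fasn at -0.28 and Scd1 at -0.26 and a list median of -0.14.

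The count of 11 depended on single mice and on the scaling. Leaving out 1 of the 12 arrays gave 5 to 12 genes, the lowest without control+L-Arg 3 and 7 without control 1, control 2, control 3 or control+L-Arg 2. The list median stayed between -0.35 and -0.27 on leaving out any of the 6 arrays without DSS. Leaving out an array of a mouse given DSS cannot move it. Quantile normalization of the genes tested and cyclic loess gave 7 genes each, at medians of -0.25 and -0.24, an accessory gland covariate 6 at -0.29, and the posterior Hox and smooth muscle covariates 11 and 9. The unequal-variance test also gave 7 genes, and its unadjusted p for Hmgcs1 was 0.074.

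**Figure D3:**
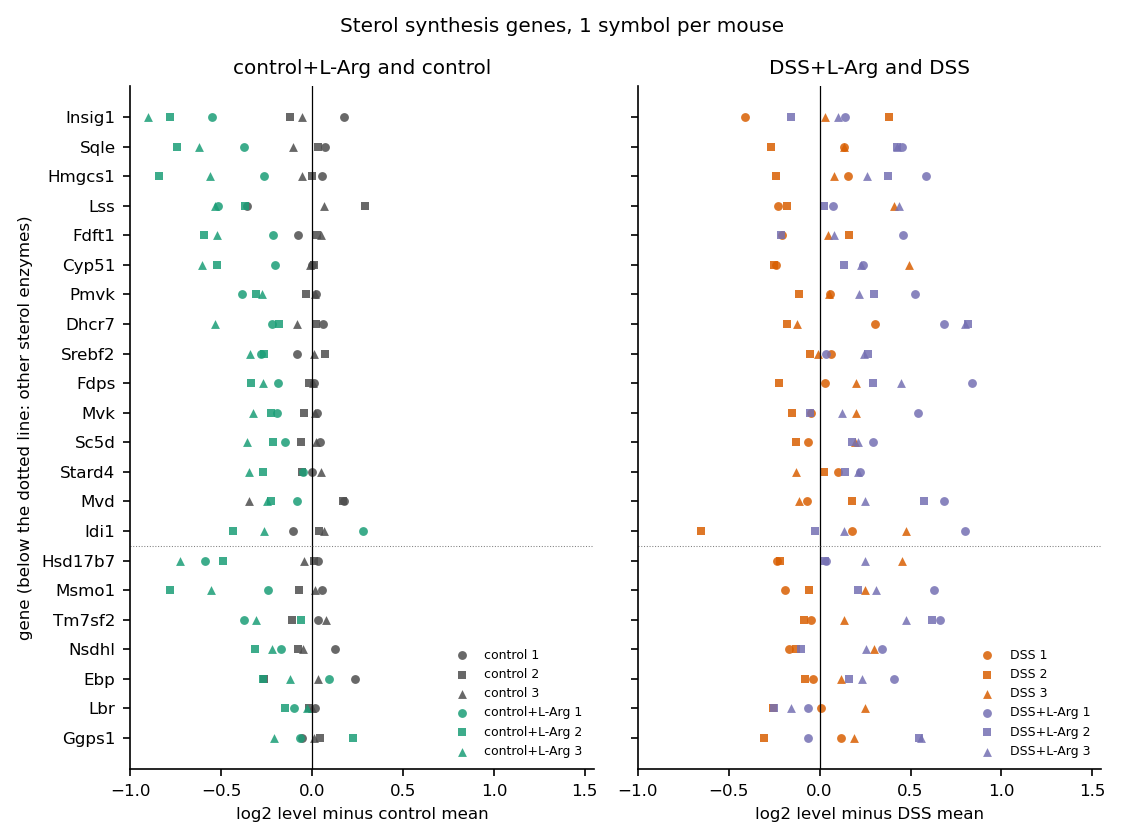
Log2 level of sterol synthesis genes in each mouse, minus the mean of the control mice (left) or of the DSS mice (right), with 1 row per gene, 1 symbol per mouse and the 15 genes of the cholesterol synthesis list above the dotted line. Most control+L-Arg mice lie to the left of the control mice (12 of the 15 genes do not overlap), and most DSS+L-Arg mice lie to the right of the DSS mean.

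After DSS the same genes were higher, not lower, with L-Arg. This second comparison uses 6 other mice and shares no array with the first. All 15 genes had a positive log2 fold change of DSS+L-Arg over DSS, with a median of 0.23. Over all 19938 genes, 12529 were positive, with a median of 0.056. In 7 of the 15 the groups did not overlap with DSS+L-Arg higher, where this held for 11% of all genes. Dhcr7, at 10.26, 9.78 and 9.83 in DSS and 10.64, 10.77 and 10.75 in DSS+L-Arg mice, was the 1 member that passed (log2 fold change 0.77, adjusted p = 0.036 by limma), where 127 genes (0.637%) did. Sqle was at 10.02, 9.62 and 10.02 and 10.34, 10.31 and 10.31, and Hmgcs1 at 10.78, 10.39 and 10.70 and 11.21, 11.00 and 10.89, both without overlap. Insig1 was at 10.50, 11.29 and 10.94 and 11.05, 10.75 and 11.02, which overlap. The difference between both effects, tested in 1 model over the 12 mice, passed adjustment for 15 of the genes tested (0.0752%), none of them in this list. It was positive for all 15 genes of the list, where 12175 of the 19938 genes were positive. It had an unadjusted p under 0.05 for 14, where 6.62% of all genes were that much higher. Here too the list was chosen with earlier results known, and its genes, measured in the same mice, are not separate observations. The lowest adjusted p in the list was 0.068, for Sqle and Dhcr7 (differences of 1.02 and 1.08). That value lay between 0.017 and 0.23 over the alternatives, and under 0.05 with array weights (0.028), median centring (0.043), a smooth muscle covariate (0.046), and without DSS 1 (0.017), DSS 3 (0.039) or control+L-Arg 2 (0.039).

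Most genes whose expression L-Arg changed after DSS had a value of the opposite sign without DSS. Of the 104 genes that were lower in DSS+L-Arg than in DSS mice at an adjusted p under 0.05, 85 had a positive log2 fold change in uninjured mice (46.5% of all genes did), with a median of 0.17, and 9 of them had a p under 0.05, where 1.33% of all genes were that much higher. Of the 23 genes that were higher, 19 had a negative value (10673 of the 19938 genes did), with a median of -0.16. A total of 6 of them had a p under 0.05, where 2.11% of all genes were that much lower. The 104 genes were above the control mean in control+L-Arg 1 and 3 (medians of 0.24 and 0.36) and not in control+L-Arg 2 (-0.038). In control mice 1, 2 and 3 these medians were -0.063, 0.074 and 0.0057. Without control+L-Arg 3 the median of the 104 genes was 0.088, with 74 positive, and with a smooth muscle covariate it was 0.15, with 84 positive. The genes were chosen on arrays of the mice given DSS, and the spread that limma used to choose them came from all 12.

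The 9 genes were C1s1, Dab2, Dcn, Klhl6, Ms4a6c, Plau, Serpina3n, Sla and Vcam1, and the 6 were Dhcr7, Dusp6, Lyrm7, Pla2g3, Stpg1 and Tm7sf2. Dcn, the collagen-binding proteoglycan decorin of fibroblasts, was at 10.37, 10.48 and 10.36 in control and 11.39, 10.66 and 11.61 in control+L-Arg mice, without overlap, while it was -1.37 in DSS+L-Arg over DSS. The unadjusted p of Dcn without DSS was 0.10 with the unequal-variance test, and 0.052 by limma on leaving out control+L-Arg 3. Plau, the urokinase-type plasminogen activator, was at 5.75, 5.77 and 5.88 and 6.11, 5.92 and 6.50, with a log2 fold change of 0.38 without and -2.32 after DSS. The collagenase Mmp13, at 5.88, 6.04 and 5.21 and 7.19, 5.71 and 6.19, overlapped between the uninjured groups. Mmp13 had 1 of the 5 largest decreases after DSS, and the others, in Ngp, Ifitm6, Lcn2 and Mmp8, which neutrophils express, had log2 fold changes of 0.31, 0.024, -0.0099 and -0.12 without it. In the opposite direction, the secreted phospholipase Pla2g3 was at 9.55, 9.09 and 8.95 in control and 8.56, 8.57 and 8.59 in control+L-Arg mice, and at 7.56, 7.43 and 8.47 in DSS and 9.70, 9.67 and 9.33 in DSS+L-Arg mice. The other largest increases after DSS, in Aldh3b2, Ms4a12, Chid1 and Samd12, had log2 fold changes of -0.28, -0.31, -0.16 and -0.30 without it.

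**Figure D4:**
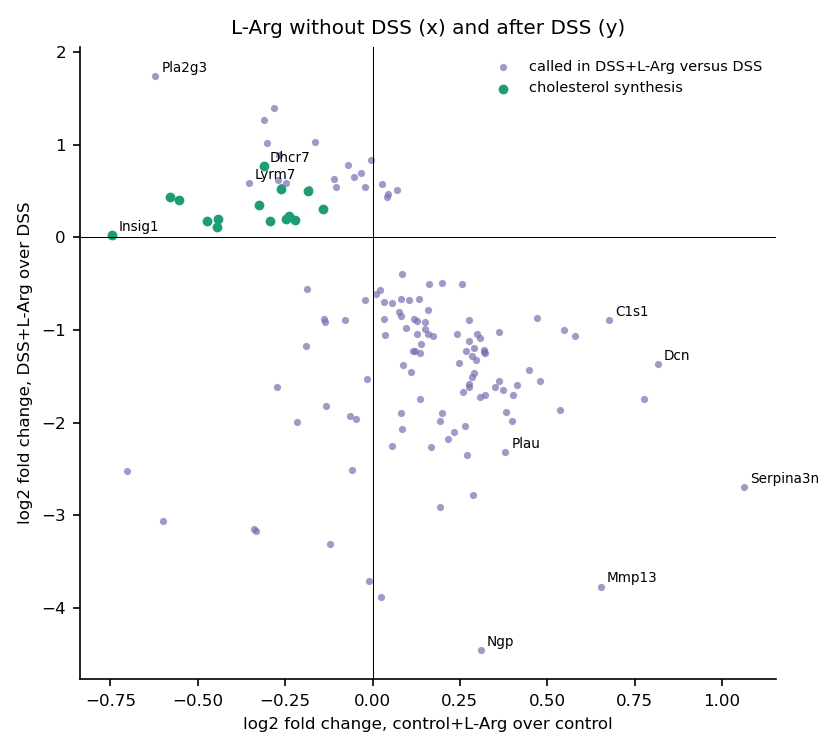
Each point is 1 gene, with its log2 fold change by L-Arg without DSS on the x axis (control+L-Arg over control) and after DSS on the y axis (DSS+L-Arg over DSS), for the 127 genes called in DSS+L-Arg versus DSS (purple) and the 15 measured cholesterol synthesis genes (green). The axes share no array, 85 of the 104 purple points below 0 on the y axis lie to the right of 0, and all green points lie to the upper left.

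Markers of immune and stromal cells differed among the control+L-Arg mice, with control+L-Arg 2 the lowest in most lists. In tissue, more cells of a type and more RNA per cell cannot be told apart. MHC class II genes had the highest list median, 0.54 over 8 genes, with none at a p under 0.05. Cd74, the invariant chain of these molecules, was at 9.01, 9.18 and 9.55 in control and 11.01, 8.86 and 10.64 in control+L-Arg mice, high in control+L-Arg 1 and 3 and below each control mouse in control+L-Arg 2. H2-Aa had the same pattern, at 10.27, 8.12 and 10.06 in the treated mice (log2 fold change 0.98, 95% interval -0.20 to 2.16). B cell markers were high in control+L-Arg 1 alone (list median 0.95, against -0.20 and 0.058 in the other treated mice), with 1 of 12 at a p under 0.05, the kinase Blk at 5.57, 5.34 and 5.45 and 6.04, 5.78 and 5.99. Of 18 monocyte and macrophage markers, 2 were higher at a p under 0.05, the complement subunit C1qc at 7.22, 7.55 and 7.80 and 8.41, 7.40 and 9.12 and the growth factor receptor Csf1r at 7.09, 7.14 and 6.94 and 7.40, 7.21 and 7.99. The list median was 0.23, -0.062 and 0.72 in the 3 treated mice. Fibroblast and matrix genes had list medians of 0.21, -0.084 and 0.93 in the same mice, and Dcn was the 1 of 14 with a p under 0.05. Serpina3n and C1s1 had the same order of treated mice as the macrophage and fibroblast lists, and so did endothelial markers (list medians of 0.34, -0.21 and 0.43). All 12 endothelial markers had a positive value, where 46.5% of all genes did, and none had a p under 0.05. The part of cell composition in the values of Serpina3n and C1s1 was not tested, and with a smooth muscle covariate they were 0.99 and 0.63.

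Few other immune genes differed. Neutrophil markers had a median of -0.011 with none of 17 at a p under 0.05, and Il1b was at 5.27, 9.14 and 5.51 and 6.14, 5.42 and 5.73, high in control 2. Of 18 T and cytotoxic cell genes, Icos, a costimulatory receptor, was at 5.40, 5.64 and 5.31 in control and 5.92, 5.87 and 5.87 in control+L-Arg mice, and the natural killer receptor Klrb1c at 4.03, 4.11 and 4.02 and 4.18, 4.25 and 4.46, both without overlap. Both genes are dim, with every value below 5.89, the level of the dim filter, except Icos in control+L-Arg 1. Of genes with a mean level under 5, as in Klrb1c, 2.72% were higher at an unadjusted p under 0.05. Of 26 cytokines and chemokines, Ccl11, the eosinophil chemoattractant eotaxin, was at 6.70, 7.11 and 7.12 and 7.51, 7.11 and 8.82, with the highest value in control+L-Arg 3. No member of the interferon-stimulated, eosinophil and mast cell, and plasma cell lists had a p under 0.05, and in the first of these the treated mice spread from -0.45 to 0.77. Of 8 immunoglobulin segments only Igkv9-120 had such a p.

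Epithelial lists went in both directions. Crypt stem cell genes had a median of 0.25, with 9 of 11 positive, where 46.5% of all genes were. In 3 of the 11 the groups did not overlap with control+L-Arg higher, where this held for 3.65% of all genes. Relative to the control mean, the crypt list median was 0.22, -0.0063 and 0.48 in control+L-Arg mice 1, 2 and 3. In control mice 1, 2 and 3 it was -0.0033, -0.016 and 0.073. Ion and water transport genes had a median of -0.16. Their list median was -0.017, -0.30 and -0.016 in the treated mice and 0.074, -0.16 and 0.083 in the control mice. In both lists control+L-Arg 2 was the lowest treated mouse. Colonocyte, goblet cell and enteroendocrine markers had medians of -0.092, 0.082 and 0.018, with 1 gene at a p under 0.05, Gcg, the proglucagon gene, at 10.08, 10.46 and 10.73 and 10.61, 10.82 and 11.22. The tuft cell cytokine Il25 was at 6.24, 6.17 and 6.28 and 5.99, 5.96 and 6.04, a small difference without overlap. Duox2 and Duoxa2, the hydrogen peroxide-forming oxidase of the epithelium and its maturation factor, were 2 of 15 antimicrobial and lectin genes and both lower with L-Arg. Duox2 was at 10.59, 10.86 and 10.02 in control and 10.03, 9.83 and 9.95 in control+L-Arg mice, and Duoxa2 at 11.01, 11.33 and 10.06 and 10.08, 10.13 and 10.20. Control 3 overlapped with the treated mice in both, and with the unequal-variance test the unadjusted p of Duox2 was 0.15. The sodium-potassium-chloride cotransporter Slc12a2 was at 10.71, 10.79 and 11.16 and 11.38, 11.06 and 11.56, the 1 of 17 ion and water transport genes with a p under 0.05, and the receptor Tnfrsf19 was the 1 of 11 crypt stem cell genes (0.32). The clock repressor Cry1, at 8.17, 8.50 and 7.92 and 7.66, 8.06 and 7.17, was the 1 of 17 clock genes. No gene of proliferation, oxidative phosphorylation, or fatty acid oxidation and ketogenesis had a p under 0.05. Over the 38 lists, 12 of 566 measured entries were higher and 18 lower at an unadjusted p under 0.05, of which 11 were cholesterol synthesis genes. Among the 551 entries outside that list, 12 were higher (2.18%) and 7 lower (1.27%), where 1.33% and 2.11% of all genes were. In 21 of the 38 lists no member had such a p.

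**Figure D5:**
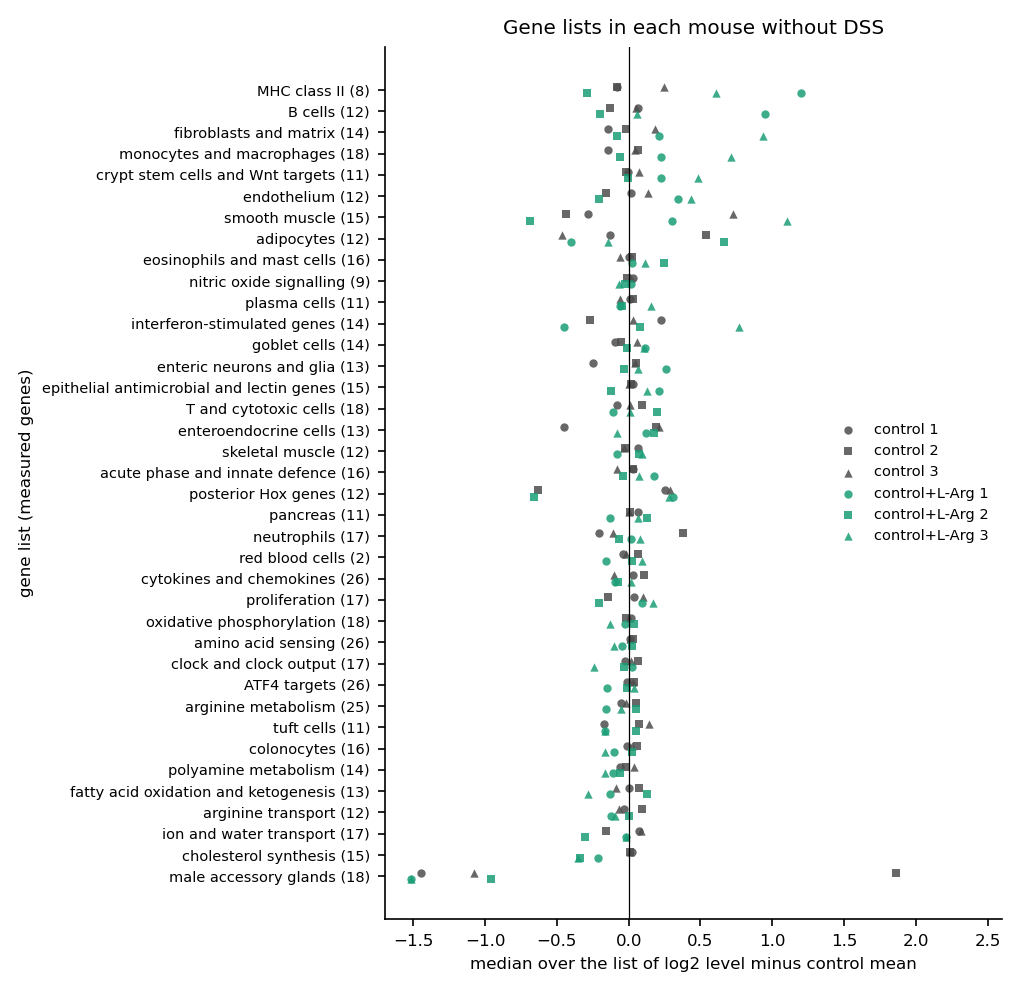
Median over each gene list of the log2 level minus the control mean (x axis) in each of the 6 mice without DSS, with 1 row per list, the number of measured genes in brackets, and lists in order of their median log2 fold change. In cholesterol synthesis the 3 control+L-Arg mice lie below the 3 control mice, while in the MHC class II, smooth muscle and posterior Hox lists mice of the same group lie far apart.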

How the data were processed

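Colon RNA of 12 mice was measured on Affymetrix mouse Gene ST arrays. The values are log2 signals as deposited by the authors, made per the submitters' notes with Affymetrix Expression Console 1.1 and RMA, which quantile-normalizes the arrays and so hides a shift common to most genes, with build mm9. The number of arrays limits the precision.

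Of 35556 probe sets, 21789 had exactly 1 gene in the platform table, 1621 several and 12146 none, and the brightest per gene was kept. Of 19938 genes, 19856 matched the reference gene table. No array copied another of its group (over 95.1% of genes differed by over 0.01).

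Tests used limma 3.58.1 (R 4.3.3) on all 12 arrays with a mean for each group (8 residual and 3.37 prior degrees of freedom) and Benjamini-Hochberg adjustment. The comparison, the 38 gene lists (566 of 632 entries measured) and the tests were chosen with earlier results of these data known, and 4 further lists after their values were seen. By rule, the text names the 10 largest increases and decreases at an unadjusted p under 0.01 without overlap, genes past a 2-fold change, 7 genes of arginine handling, members of each list at a p under 0.05 (up to 4, or else the largest 2 or 4), and the largest called effects after DSS and differences between effects. Other genes named were chosen after their values were seen.

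Same-numbered control and control+L-Arg mice deviated together from their group means (correlations of 0.205, 0.477 and 0.261), so the number was tried as a block, although the labels do not say that numbers pair mice and control 3 correlated with control+L-Arg 1 as well (0.272). Other alternatives were a fit of 6 arrays, median centring, quantile normalization, a filter on dim genes (above 5.89 in at least 3 arrays), means of probe sets, a trended prior, SAM over 20 label orders, an unequal-variance test, array weights, covariates for posterior Hox and smooth muscle genes, and leaving out each array. Cyclic loess and an accessory gland covariate were added after seeing the data. On data simulated for this comparison over 19938 genes, limma found 31 of the 67 genes given a 1.5-fold change, 54 of the 67 given a 2-fold and 65 of the 66 given a 4-fold change, and called 5 others falsely. The simulated noise was independent between genes and held no shift shared by many genes of a mouse. These counts therefore need not hold for the real arrays.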

Additional observations from a re-analysis of the deposited data

Results flagged for a closer look

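The effect of L-Arg with DSS differed from that without DSS at an adjusted p under 0.05 by limma for 15 genes (0.0752% of the genes tested), 2 with a positive and 13 with a negative difference (the log2 fold change of DSS+L-Arg over DSS minus that of control+L-Arg over control). The positive differences were in Pla2g3 (2.37) and Lyrm7 (0.94), both at a p under 0.05 in the uninjured mice too, with log2 fold changes of -0.62 and -0.35. Lyrm7, an assembly factor of the respiratory chain, was at 7.13, 7.09 and 7.04 in control and 6.80, 6.79 and 6.60 in control+L-Arg mice, without overlap. Of the negative differences, the matrix proteases Mmp13 (-4.42), Mmp3 (-3.10) and Mmp10 (-3.07) were among the largest, with log2 fold changes without DSS of 0.65, 0.19 and 0.29. Serpina3n (-3.75) was higher without DSS (1.06) and lower with it (-2.69), and so were Plau (-2.70) and C1s1 (-1.57). The ferroxidase Cp (-2.43), the hyaluronan-degrading Cemip (-2.33), Ms4a4a (-2.30), the prostaglandin synthase Ptges (-2.10), the cytokine Il6 (-1.51), the lipase Aoah (-1.34) and the growth factor Nrg1 (-1.29) had log2 fold changes without DSS of 0.17, 0.23, 0.27, 0.20, -0.015, 0.30 and 0.14.

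The median over the cholesterol synthesis list was below the control mean in all 3 control+L-Arg mice and above the DSS mean in all 3 DSS+L-Arg mice. The median difference between the effects over its genes was 0.65, against 0.061 over all genes. This difference was not tested for the list as a whole.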

How the results depend on the processing

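With 3 mice per group and noise independent between genes, limma found 31 of 67 simulated 1.5-fold changes. Of the comparisons of named genes with an alternative, 2689 stayed on their side of an unadjusted p of 0.01, and those not past it moved by less than the spread between mice, while 147 lost that p, 65 reached it and 2 moved further. No named gene past that p changed sign. The fold change itself cannot move in several of these alternatives, where only the p can. These are the fit without the mice given DSS, the block fits and the filter on dim genes. The trended prior, SAM, the unequal-variance test and leaving out a mouse given DSS also belong to them. Stability of sign and size was therefore tested only in the other alternatives. The causes of the differences below were not tested.

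The count of genes at an adjusted p under 0.05 was 0 in every fit of all 6 mice and 0 to 1 on leaving out an array (1 without control 1). Genes at a p under 0.01 and over 2-fold numbered 1 in a fit of 6 arrays, 0 with the unequal-variance test and 10 with the accessory gland covariate, and 0 to 32 on leaving out an array (32 lacking control+L-Arg 2, 1 lacking control 1 and 0 lacking control+L-Arg 1 or 3). Over 1.5-fold they numbered 4 with the unequal-variance test, 42 with the accessory gland covariate and 52 with array weights, and 5 to 141 on leaving out an array (141 lacking control+L-Arg 2, 28 lacking control 3 and 5 lacking control+L-Arg 3). Genes higher at a p under 0.05 numbered 126 without dim genes and 501 with array weights (121 to 572 on leaving out an array, with 572 and 121 on leaving out control+L-Arg 2 and control+L-Arg 3, 519 on leaving out control+L-Arg 1 and 171 on leaving out control 1). Genes that were lower numbered 643 in a fit of 6 arrays, 656 with SAM and 859 with array weights (164 to 885, the extremes without control+L-Arg 3 and control+L-Arg 2, and 237 without control 1). Genes within a 2-fold change numbered 18659 to 19338 on leaving out an array. Cholesterol synthesis genes lower at a p under 0.05 numbered 7 with quantile normalization, cyclic loess or the unequal-variance test and 6 with the accessory gland covariate (5 to 12 on leaving out an array). Their count for the difference of effects was 10 to 14. Genes called for that difference numbered 5 with the accessory gland covariate, 23 with cyclic loess or the mean of probe sets, 24 with median centring, 93 with array weights and 115 with the smooth muscle covariate (4 to 135 on leaving out an array: 135 without control+L-Arg 2, 82 without DSS 3, 53 without DSS 1, 23 without DSS 2, and 4 to 9 without any other array).

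With the replicate number as a block in a fit of 6 arrays, 557 genes were higher and 971 lower at a p under 0.05 and 51 passed a p under 0.01 and over 1.5-fold. The block added no call after adjustment for L-Arg without DSS, gave 16 genes called for the difference of effects over 12 arrays, and left 12 cholesterol synthesis genes lower in that fit and 11 in the fit of 12 arrays.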
